A study of Mus musculus with 6 samples.

Results

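Glutathione and thioredoxin antioxidant genes were followed in mouse bone marrow neutrophils that had met live Candida albicans, with and without progranulin (PGRN, encoded by Grn). The 10 genes were chosen by name, with earlier results of these data known, and all 10 have a row among the 54532 genes of the expression table. They are the regulators Nfe2l2 and Keap1, the glutathione genes Slc7a11, Gclc, Gclm and Gsr, the thioredoxin and peroxiredoxin genes Txnrd1, Srxn1 and Prdx1, and the superoxide dismutase gene Sod2. RNA sequencing libraries came from 3 wild-type (WT) and 3 progranulin knockout (PGRN KO) cultures, labelled C57BL/6J. In both genotypes neutrophils isolated with anti-Ly-6G beads were cultured for 2 h and then challenged with the fungus for 6 h, at an MOI that the labels give as 1:1 and another source gives differently. The PGRN KO mice, on a C57BL/6 background, and the WT mice came from different suppliers, so genotype and source of the mice cannot be told apart. No unstimulated culture was analysed here, so every value describes stimulated cells. The number of mice behind each culture is not stated, and the p-values measure the spread between these libraries, which may be technical.

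NRF2, the protein of Nfe2l2, is a transcription factor that KEAP1 holds for degradation until oxidants or electrophiles modify KEAP1. Free NRF2 pairs with small MAF proteins at antioxidant response elements (AREs) and drives genes that make glutathione, regenerate reduced thioredoxin and repair peroxiredoxins, while BACH1 competes for the same elements as a repressor. Neutrophils make superoxide with the NADPH oxidase to kill fungi, and their glutathione and thioredoxin systems remove the hydrogen peroxide that reaches their own proteins.

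Promoter windows of these genes were searched for the ARE core, because most of the genes are known targets of NRF2. RefSeq windows of GRCm38.p6, from 250 bases before to 50 after a start site, were at hand for 8 of the 10 genes, in 10 windows, and not for Gclc and Gsr. The ARE core TGACNNNGC, read on both strands, stood in a window of 5 of the 8 genes, and in 12.4% of all 32851 promoter windows. The core lay 240 bases before the start of Nfe2l2 (chr2:75704855-75704913), 134 before that of Gclm (chr3:122245383-122245471), 92 before an internal start of Txnrd1 (chr10:82859074-82859162, within the gene but in no exon) and 133 before that of Prdx1 (chr4:116685426-116685514). In Srxn1 it lay 28 bases after the start, in an exon. These stretches are shown 5′ to 3′ on the strand of the gene, with the core in capitals; in Gclm, Txnrd1 and Prdx1 the core reads on the opposite strand.
Nfe2l2: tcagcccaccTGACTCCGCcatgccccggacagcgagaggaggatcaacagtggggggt
Gclm: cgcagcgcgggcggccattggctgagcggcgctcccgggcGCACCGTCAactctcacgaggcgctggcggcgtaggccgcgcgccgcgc
Txnrd1: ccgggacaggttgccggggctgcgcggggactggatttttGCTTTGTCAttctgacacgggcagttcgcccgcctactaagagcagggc
Prdx1: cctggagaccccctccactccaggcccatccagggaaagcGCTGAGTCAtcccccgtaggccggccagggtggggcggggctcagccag
The motif TGANTCA, to which AP-1 factors bind and which can overlap the ARE core, occurred in 7.81% of all windows and in those of Srxn1 and Prdx1. In Prdx1 it lay 237 and 131 bases before the start, and the nearer match overlaps the ARE core printed above. In Srxn1 it lay 102 and 45 bases before the start, and the farther match is in capitals here, at chr2:152105382-152105468.
Srxn1: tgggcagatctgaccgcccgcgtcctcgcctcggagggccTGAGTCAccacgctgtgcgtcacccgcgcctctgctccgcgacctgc
The windows of Keap1, Slc7a11 and Sod2 held neither motif. A match is a run of letters and not a measured binding site.

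Levels are given as FPKM, fragment numbers scaled for gene length and library size, which allows genes of different length to be set side by side. Grn, the targeted gene, was at 161.3 to 168.4 FPKM in the WT and 0.206 to 0.747 in the PGRN KO libraries. The libraries held 17290604 to 17799798 fragments on genes in WT and 17087344 to 18821091 for PGRN KO, and each of the 10 genes was measured from at least 1163 fragments per library. The summed level of 12 neutrophil markers was 72370 to 76950 FPKM in WT and 73690 to 83690 in PGRN KO, with 1 of them higher (Mmp9) and 2 lower (Csf3r and Mmp8). These calls are by the test described below, which called 7.94% of all genes tested higher and 9.95% lower. Markers of other cells also moved with genotype. All 5 neutrophil precursor markers were higher in PGRN KO (summed level 128.7 to 143.8 FPKM in WT and 608.7 to 670.4 in PGRN KO), as were 6 of 6 tested B lineage markers (431.4 to 445.9 and 2168 to 2460), 4 of 6 basophil markers (2.021 to 2.494 and 11.01 to 12.72), 3 of 4 tested erythroid markers (1.072 to 3.143 and 5.48 to 6.528) and 7 of 8 cell cycle markers (126.1 to 128.8 and 156 to 165.4). Of 6 tested monocyte and macrophage markers 1 was higher and 2 were lower (summed level 497 to 504.2 and 531.9 to 676.1), with Mertk at 0 in every library, and of 2 tested T and NK cell markers none was called, 0 of them at an unadjusted p under 0.05 as well. The part of these cells in the results below was not tested. In such bulk libraries, fewer cells of a type and less RNA per cell cannot be told apart.

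In PGRN KO neutrophils 8 of the 10 antioxidant genes were lower than in WT, none was higher (0 also at an unadjusted p under 0.05), and Gsr and Sod2 did not pass the test. Means were lower by 19.4% for Keap1 to 40% for Gclc. The test was limma on log2(FPKM + 1), two-sided, with p-values adjusted by Benjamini-Hochberg across all 14807 genes and a threshold of 0.05, and log2 fold changes below are PGRN KO minus WT on that scale. By the same test 17.9% of all genes were called, 9.95% lower and 7.94% higher. The share called lower was 17.3% with the filter raised to 1 FPKM and 15.1% among protein-coding genes alone. In both of these settings 8 of the 10 antioxidant genes were lower. For the same 8 genes every PGRN KO library lay below every WT library, which held for 19.6% of all genes tested. The median log2 fold change was -0.47 over the 10 genes and 0.00255 over all genes tested. The divisors that the authors used for library size place PGRN KO values lower relative to WT than plain totals of fragments do. With plain totals, 7 of the 10 genes were called lower and their median was -0.35, against 0.067 over all genes. Voom on the fragments gave 7 lower, 1 higher (Gsr) and a median of -0.36, against 0.12 over all genes.

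**Figure D1:**
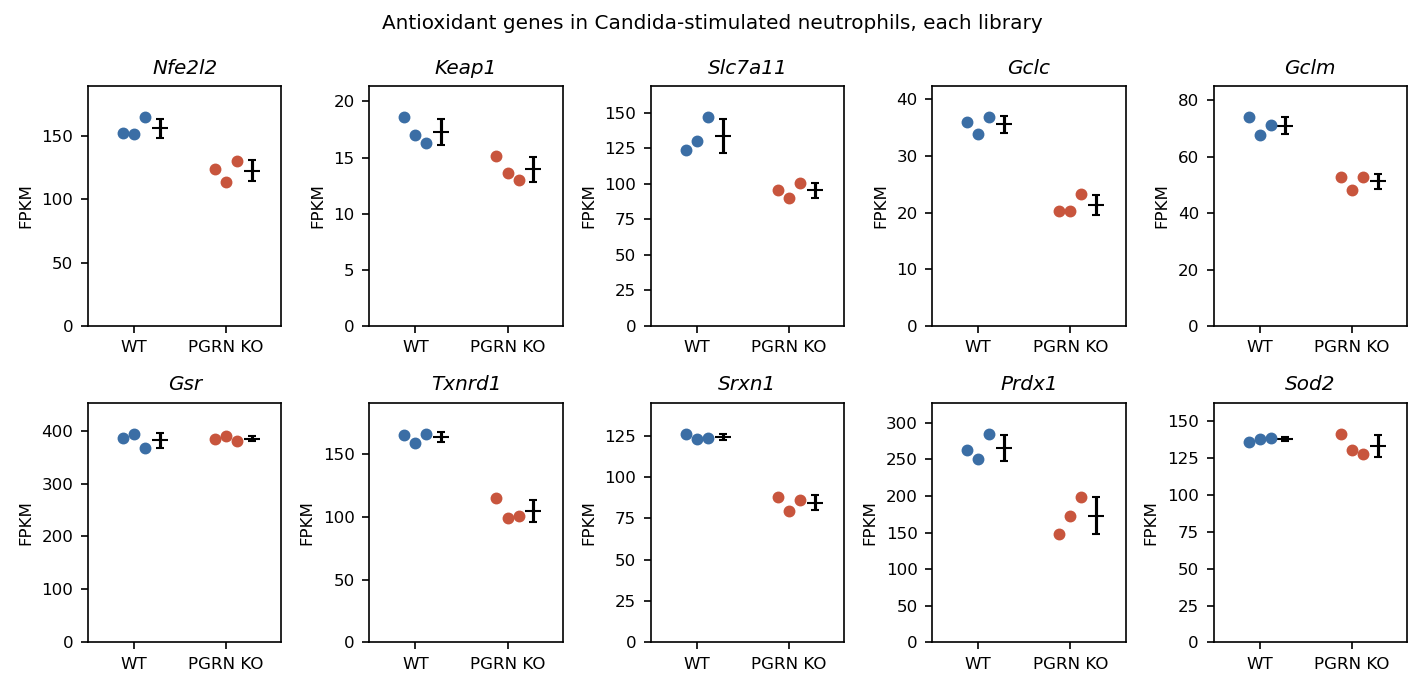
FPKM of each antioxidant gene in the 3 WT (blue) and 3 PGRN KO (red) libraries, in order of replicate number, with the mean and SD in black beside each group; every axis starts at 0. The PGRN KO points lie below all WT points in 8 panels and overlap with them for Gsr and Sod2.

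Of the regulators, Nfe2l2 (ENSMUSG00000015839, chromosome 2, 75675513 to 75704641, minus strand) was at 152.3, 151.5 and 164.8 FPKM in the WT libraries and at 124.3, 113.8 and 130.1 in the PGRN KO libraries. Its highest PGRN KO library stood below its lowest WT library. The mean fell from 156.2 ± 7.49 to 122.8 ± 8.26 (SD, n = 3 each), a difference of -0.35 on the log2 scale (standard error 0.062, adjusted p = 0.0124), and the call held under all 17 alternative settings.

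Keap1, the sensor that holds NRF2 (ENSMUSG00000003308, chromosome 9, 21229730 to 21239361, minus strand), was at 18.59, 16.98 and 16.32 FPKM in WT and at 15.15, 13.65 and 13.03 in PGRN KO. The gap between the nearest libraries of the genotypes was narrow, and Keap1 was the scarcest of the 10. Its mean fell from 17.30 ± 1.17 to 13.94 ± 1.09 FPKM (SD, n = 3 each), a difference of -0.29 on the log2 scale (standard error 0.073, adjusted p = 0.0367). This call held under 8 of 17 alternatives, whose adjusted p ran from 0.0131 to 0.134, and was lost when any 1 library other than PGRN KO replicate 4 was left out. An antisense gene, Gm16754, overlaps Keap1 and was counted at 127 to 192 fragments per library. Since the library kit does not mark the strand, reads of the pair cannot be told apart there.

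Within each library the ratio of Nfe2l2 to Keap1 does not depend on scaling. It was 8.191, 8.921 and 10.1 in WT and 8.206, 8.343 and 9.988 in PGRN KO. These ranges nearly coincide. On the log2 scale the ratio differed by -0.037 (exact two-sided permutation p = 0.8, the smallest possible being 0.1, and 0.8 after adjustment over 7 ratios).

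Glutathione is built from cysteine, glutamate and glycine. Slc7a11, the cystine importer of system xc- (ENSMUSG00000027737, chromosome 3, 49892526 to 50443614, minus strand), was at 123.6, 129.7 and 146.7 FPKM in WT and at 95.61, 89.96 and 100.3 in PGRN KO. WT replicate 3 stood above the other two WT libraries, and all WT libraries above all PGRN KO libraries. The mean fell from 133.3 ± 12 to 95.30 ± 5.19 (SD, n = 3 each), a difference of -0.48 on the log2 scale (standard error 0.074, adjusted p = 0.00782).

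Slc3a2 encodes the heavy chain that carries SLC7A11 to the membrane. It was at 338.9, 329.7 and 326.0 FPKM in WT and at 261.5, 239.7 and 234.0 in PGRN KO, and thus fell in the same direction (log2 fold change -0.44, standard error 0.052, adjusted p = 0.00287). The ratio of Slc7a11 to Slc3a2 ran from 0.3646 to 0.45 in WT and from 0.3657 to 0.4288 in PGRN KO. On the log2 scale this ratio differed by -0.044 (exact permutation p = 0.7, adjusted 0.8).

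Gclc encodes the catalytic subunit of glutamate-cysteine ligase, the rate-limiting enzyme of glutathione synthesis (ENSMUSG00000032350, chromosome 9, 77754535 to 77794485, plus strand). It was at 35.93, 33.97 and 36.84 FPKM in WT and at 20.35, 20.35 and 23.30 in PGRN KO. The genotypes were well apart. Of the 10 genes it had the lowest log2 fold change, -0.71 (standard error 0.066, adjusted p = 0.00122), with means of 35.58 ± 1.46 and 21.34 ± 1.70 (SD, n = 3 each), and 1.55% of all genes tested had a lower one.

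Gclm, the modifier subunit that raises the activity of the ligase (ENSMUSG00000028124, chromosome 3, 122245557 to 122270732, plus strand), was at 74.04, 67.91 and 71.28 FPKM in WT and at 52.70, 48.30 and 53.02 in PGRN KO. It fell from 71.08 ± 3.07 to 51.34 ± 2.64 (SD, n = 3 each), a difference of -0.46 on the log2 scale (standard error 0.055, adjusted p = 0.00294). The fall was smaller than that of the catalytic subunit. The ratio of Gclm to Gclc was 2.061, 1.999 and 1.935 in WT and 2.589, 2.373 and 2.275 in PGRN KO. All PGRN KO libraries had the higher ratio, by 0.27 on the log2 scale, at the smallest p that 3 against 3 allows (exact permutation p = 0.1, adjusted 0.175).

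Gsr, glutathione reductase, which returns oxidized glutathione to its reduced form with NADPH (ENSMUSG00000031584, chromosome 8, 33652523 to 33698163, plus strand), was the most abundant of the 10. It was at 385.5, 393.9 and 366.2 FPKM in WT and at 384.7, 389.9 and 379.7 in PGRN KO, and the PGRN KO values lay inside the WT range. Its log2 fold change was 0.011, with a 95% interval from -0.0885 to 0.111 (adjusted p = 0.883). Voom on the fragments called Gsr higher (0.13, adjusted p = 0.0485), and without WT replicate 3 the value was -0.018. Gss, glutathione synthetase, fell from 5.347 ± 0.318 to 3.511 ± 0.188 FPKM (SD, n = 3 each, adjusted p = 0.00445). The ratio of Gsr to Gss, 68.08 to 78.35 in WT against 104.4 to 118.3 in PGRN KO, was higher by 0.62 on the log2 scale with no overlap (exact permutation p = 0.1, adjusted 0.175).

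In the thioredoxin system, Txnrd1 encodes the cytosolic selenoenzyme that reduces thioredoxin with NADPH (ENSMUSG00000020250, chromosome 10, 82833951 to 82897712, plus strand). It was at 165.0, 159.1 and 166.2 FPKM in WT and at 114.7, 99.15 and 100.7 in PGRN KO. The WT libraries were close to each other and far above all PGRN KO libraries. The mean fell from 163.4 ± 3.82 to 104.8 ± 8.56 (SD, n = 3 each), a difference of -0.64 on the log2 scale (standard error 0.063, adjusted p = 0.0015).

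Its substrate thioredoxin, Txn1, was at 636.4, 658.5 and 581.3 FPKM in WT and at 551.7, 570.3 and 564.0 in PGRN KO, and did not pass the test (log2 fold change -0.15, adjusted p = 0.105). Without WT replicate 3 Txn1 was called lower (-0.20, adjusted p = 0.0417), and with plain totals and with voom its value was -0.032 (adjusted p = 0.73 and 0.72). The ratio of Txnrd1 to Txn1 was 0.2593, 0.2415 and 0.2858 in WT and 0.2079, 0.1739 and 0.1786 in PGRN KO. Every PGRN KO library had a lower ratio of reductase to thioredoxin mRNA than every WT library. The difference was -0.49 on the log2 scale (exact permutation p = 0.1, adjusted 0.175).

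Srxn1, sulfiredoxin, repairs peroxiredoxins whose catalytic cysteine has been overoxidized (ENSMUSG00000032802, chromosome 2, 152105516 to 152111376, plus strand). It was at 126.2, 122.8 and 123.7 FPKM in WT and at 87.71, 79.47 and 86.25 in PGRN KO. Its WT libraries varied by 1.46% (coefficient of variation), and the genotypes were far apart. The mean fell from 124.2 ± 1.81 to 84.48 ± 4.4 (SD, n = 3 each), a difference of -0.55 on the log2 scale (standard error 0.048, adjusted p = 0.001).

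Prdx1, a peroxiredoxin that removes hydrogen peroxide and is recycled by thioredoxin (ENSMUSG00000028691, chromosome 4, 116685544 to 116700822, plus strand), was at 262.5, 250.1 and 285.1 FPKM in WT and at 148.7, 173.0 and 198.5 in PGRN KO. The PGRN KO libraries were spread more widely than for any other of the 10 genes, with a coefficient of variation of 14.4%, yet all lay below the WT libraries. The mean fell from 265.9 ± 17.7 to 173.4 ± 24.9 (SD, n = 3 each), a difference of -0.62 on the log2 scale (standard error 0.107, adjusted p = 0.0107), and the highest adjusted p with 1 library left out was 0.0496. The ratio of Srxn1 to Prdx1 ran from 0.4338 to 0.4909 in WT and from 0.4344 to 0.5898 in PGRN KO (log2 difference 0.067, exact permutation p = 0.8, adjusted 0.8).

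Sod2, the manganese superoxide dismutase of mitochondria (ENSMUSG00000006818, chromosome 17, 13006846 to 13040063, plus strand), was at 135.9, 138.0 and 138.5 FPKM in WT and at 141.3, 130.1 and 127.8 in PGRN KO. The PGRN KO libraries lay on both sides of the WT libraries. Its log2 fold change was -0.048, with a 95% interval from -0.163 to 0.0666 (adjusted p = 0.546), and the sign turned with quantile normalization, plain totals and voom. Sod1, the cytosolic copper and zinc enzyme, fell from 17.58 ± 0.541 to 13.96 ± 1.05 FPKM (SD, n = 3 each, log2 fold change -0.31, adjusted p = 0.0181). The ratio of Sod2 to Sod1 was 7.467 to 8.065 in WT against 8.75 to 11.03 in PGRN KO, a log2 difference of 0.29 with no overlap (exact permutation p = 0.1, adjusted 0.175).

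**Figure D2:**
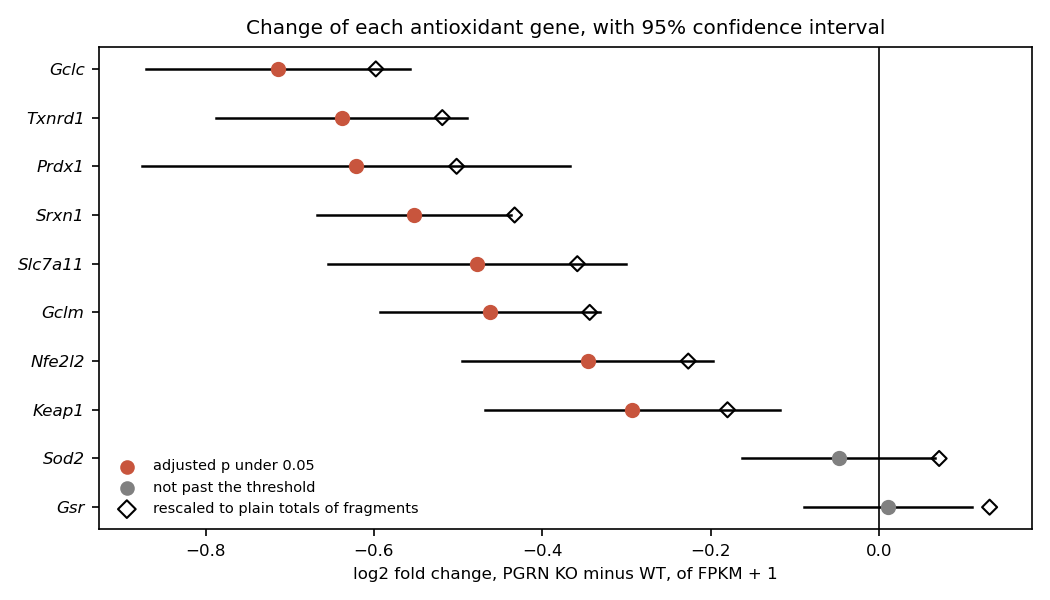
Log2 fold change of FPKM + 1 (PGRN KO minus WT) of each antioxidant gene, with its 95% interval from limma; red marks an adjusted p under 0.05 and grey no call, and open diamonds give the value after rescaling to plain totals of fragments. The intervals of Gclc to Keap1 lie below 0, and those of Sod2 and Gsr span it.

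By level, the WT order was Gsr (381.9 FPKM), Prdx1 (265.9), Txnrd1 (163.4), Nfe2l2 (156.2), Sod2 (137.5), Slc7a11 (133.3), Srxn1 (124.2), Gclm (71.08), Gclc (35.58) and Keap1 (17.30). The ranges of Txnrd1 and Nfe2l2 overlapped across the WT libraries, but within each WT library Txnrd1 was the higher. The range of Slc7a11 overlapped those of Sod2 and Srxn1, and there the order changed between libraries. In PGRN KO, Sod2 (133.1 FPKM) and Nfe2l2 (122.8) stood above Txnrd1 (104.8) and Slc7a11 (95.30), each overlapping its neighbour in range. Within each PGRN KO library Nfe2l2 was above Txnrd1, and Txnrd1 above Slc7a11. The order of the rest was as in WT. Among all genes tested, Gsr ranked 125 by mean FPKM and Keap1 2571.

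**Figure D3:**
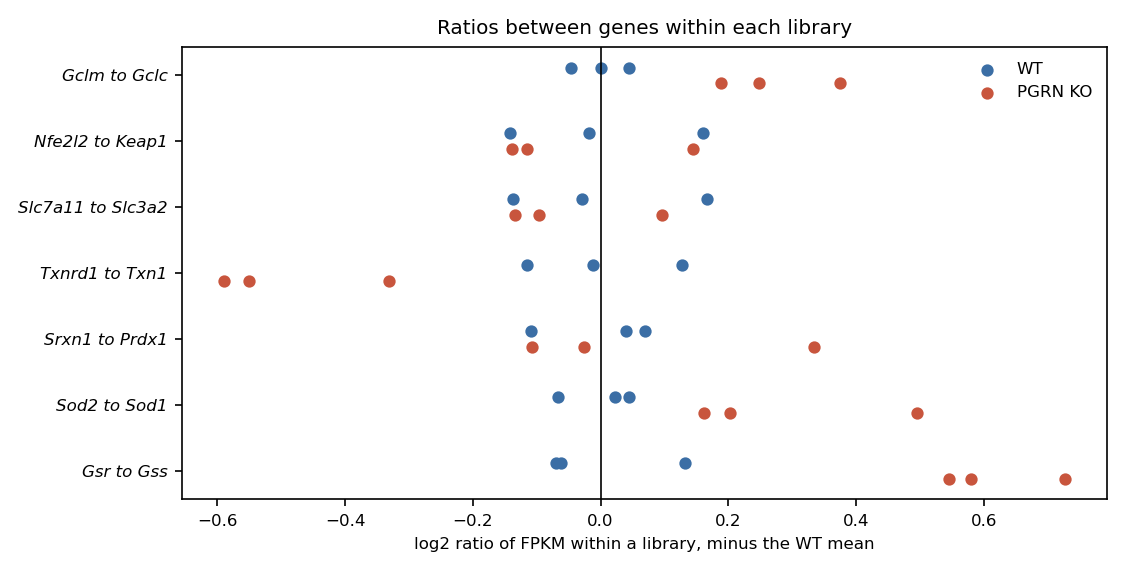
Log2 ratio of the FPKM of 2 genes within each library, minus the mean of the WT libraries for that ratio; WT is blue and PGRN KO red. Gclm to Gclc, Sod2 to Sod1 and Gsr to Gss lie higher in all 3 PGRN KO libraries, Txnrd1 to Txn1 lies lower, and the other 3 ratios overlap.

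The rest of the redox network was read from 8 lists holding 119 other genes, of which 111 could be tested. In all, 25 were lower and 16 higher in PGRN KO, and the median log2 fold change was -0.019. Of all 14807 genes tested, 9.95% were lower and 7.94% higher. With the filter raised to 1 FPKM, 17.3% of the 9249 genes left were lower, and the lists held 25 lower and 15 higher. With plain totals the lists held 17 lower and 26 higher (median 0.069), against 934 and 2149 of all genes. With voom the lists held 20 lower and 33 higher (median 0.099), against 1252 and 2984 of all genes. The lists differed from each other, and each is given by its count.

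Of 11 tested partners and repressors of NRF2, 4 were lower and none higher (median -0.15), but 1 was higher at an unadjusted p under 0.05, 1 with plain totals and 3 with voom. Bach1, the repressor of ARE genes, was at 33.58, 35.44 and 35.03 FPKM in WT and at 21.85, 20.08 and 22.78 in PGRN KO (log2 fold change -0.66, adjusted p = 0.000936). The small MAF genes Mafk (log2 fold change -0.66, adjusted p = 0.00138) and Maff (-0.50, adjusted p = 0.0094) were also lower. The remaining small MAF gene of the list, Mafg, did not pass the test (adjusted p = 0.0736). Sqstm1, the autophagy adaptor that binds KEAP1, was at 1835, 1768 and 1728 FPKM in WT and at 1402, 1202 and 1308 in PGRN KO (log2 fold change -0.45, adjusted p = 0.00569). These 4 calls held under all 17 alternatives.

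Of 13 genes of glutathione synthesis, breakdown and transport, 6 were lower and none higher (median -0.21), with 0 higher at an unadjusted p under 0.05 and 1 with voom. Beside Gss and Slc3a2 they were Anpep, a surface aminopeptidase (7.557 to 2.873 FPKM, log2 fold change -1.15, adjusted p = 0.0017), Cndp2, a cytosolic dipeptidase (log2 fold change -0.32, adjusted p = 0.0109), Oplah, the 5-oxoprolinase (-0.32, adjusted p = 0.02), and Abcc1, a glutathione conjugate exporter (-0.25, adjusted p = 0.0437). The call of Abcc1 held under 7 of 17 alternatives, and that of Oplah under 11 of 16.

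Among 24 tested peroxidases, glutaredoxins and transferases, which consume glutathione or its conjugates, 7 genes were higher and 1 lower (median 0.14). Gpx1, the abundant selenium-dependent peroxidase, was at 243.4, 238.7 and 237.4 FPKM in WT and at 367.5, 410.4 and 403.9 in PGRN KO. Every PGRN KO library was far above every WT library (log2 fold change 0.71, standard error 0.051, adjusted p = 0.000501), and the call held under all 17 alternatives. Mgst3 (0.3223 to 1.266 FPKM, log2 fold change 0.78, adjusted p = 0.0038), Mgst2 (0.51, adjusted p = 0.0219, held under 12 of 17 alternatives), Gpx3 (0.49, adjusted p = 0.00597) and Hagh, a glyoxalase (0.48, adjusted p = 0.0471, held under 7 of 17 alternatives), were higher too, at low levels. Gstm1, a transferase, fell from 113.4 ± 5.30 to 90.28 ± 2.58 FPKM (SD, n = 3 each, log2 fold change -0.32, adjusted p = 0.00679).

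Of 21 tested thioredoxins, peroxiredoxins and methionine sulfoxide reductases 5 were lower and 2 higher (median -0.00584), but 1 was lower and 3 were higher with plain totals, and 3 lower and 5 higher with voom. Nrros, a regulator that limits reactive oxygen in phagocytes, was at 102.7, 101.5 and 101.8 FPKM in WT and at 63.74, 62.95 and 65.45 in PGRN KO (log2 fold change -0.66, adjusted p = 0.000205). Txnip, which binds and inhibits thioredoxin (-0.40, adjusted p = 0.0265), Prdx6 (-0.27, adjusted p = 0.00908), Msra, which repairs oxidized methionine (-0.26, adjusted p = 0.00881), and Sesn2 (-0.25, adjusted p = 0.0377, held under 7 of 17 alternatives) were lower on the log2 scale. Nxn, nucleoredoxin, was higher (0.30, adjusted p = 0.038). The calls of Txnip and Nxn each held under 11 of 17 alternatives. Prdx5, the most abundant of the list with 1034 ± 66.7 FPKM in WT against 1133 ± 20.5 in PGRN KO (SD, n = 3 each), did not pass (log2 fold change 0.13, adjusted p = 0.158), but it was called higher with quantile normalization, plain totals and voom, at 0.25 under each. Of 3 tested genes in the list of superoxide dismutases and catalase, Sod1 and Cat (23.97 to 19.44 FPKM, adjusted p = 0.0446) were lower. With plain totals neither was called, and Cat held under 7 of 17 alternatives.

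NADPH feeds both reductases and the oxidase. Of 12 tested genes of NADPH supply 5 were higher and none lower (median 0.18). None was lower at an unadjusted p under 0.05, with plain totals or with voom, and both of the latter called 8 higher. These 2 settings also called more of all genes higher, 2149 and 2984 against 1175 in the main test. Pgls, of the pentose phosphate pathway, was at 10.95, 9.987 and 10.64 FPKM in WT and at 15.05, 15.37 and 15.09 in PGRN KO (log2 fold change 0.49, adjusted p = 0.0017). The others were the scarce Idh2 (0.8837 to 1.745 FPKM, log2 fold change 0.54, adjusted p = 0.0129), Me2 (0.32, adjusted p = 0.00885), Mthfd2 (0.19, adjusted p = 0.0192) and Tkt (0.16, adjusted p = 0.0488, held under 8 of 17 alternatives). The abundant G6pdx (119.8 FPKM in WT and 116 in PGRN KO, adjusted p = 0.571) and Pgd (212.9 and 201.7, adjusted p = 0.261) did not pass the test. Taldo1, the most abundant by its mean over all libraries, did not pass either (330.5 FPKM in WT and 318.9 in PGRN KO, adjusted p = 0.449). Nnt, the mitochondrial transhydrogenase, whose gene is known to be disrupted in C57BL/6J mice, had 15 fragments over the WT and 20 over the PGRN KO libraries and was not tested.

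Of 15 other enzymes known as NRF2 targets 5 were lower and 1 higher (median -0.09), and 4 were lower and 2 higher with plain totals and with voom. Osgin1, a stress response gene, was at 155.2, 150.4 and 145.6 FPKM in WT and at 80.64, 74.03 and 75.81 in PGRN KO (log2 fold change -0.96, adjusted p = 0.000144). Hmox1, heme oxygenase, was the most abundant gene of the network, at 4789, 4747 and 4837 FPKM in WT and at 3645, 3510 and 3586 in PGRN KO (log2 fold change -0.42, adjusted p = 0.00159). No library of either gene crossed between genotypes, and both calls held under all 17 alternatives. Blvrb, which acts after heme oxygenase (-0.61, adjusted p = 0.00314), Ptgr1 (-0.52, adjusted p = 0.0145) and the scarce Cbr3 (1.083 to 0.4998 FPKM, log2 fold change -0.46, adjusted p = 0.0407, held under 7 of 16 alternatives) were lower. Aldh9a1 was higher (0.27, adjusted p = 0.0396, held under 10 of 17 alternatives). Nqo1, a quinone reductase often read as the marker of NRF2 activity and singled out here after its values were seen, was at 37.46, 36.64 and 38.50 FPKM in WT and at 29.33, 30.35 and 39.01 in PGRN KO. PGRN KO replicate 6 stood above all WT libraries while the other two stood below, and Nqo1 did not pass the test (log2 fold change -0.20, adjusted p = 0.256). Without PGRN KO replicate 6 it was called lower (-0.32, adjusted p = 0.0116), and its value was -0.079 with plain totals and -0.078 with voom (adjusted p = 0.635 and 0.555).

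**Figure D4:**
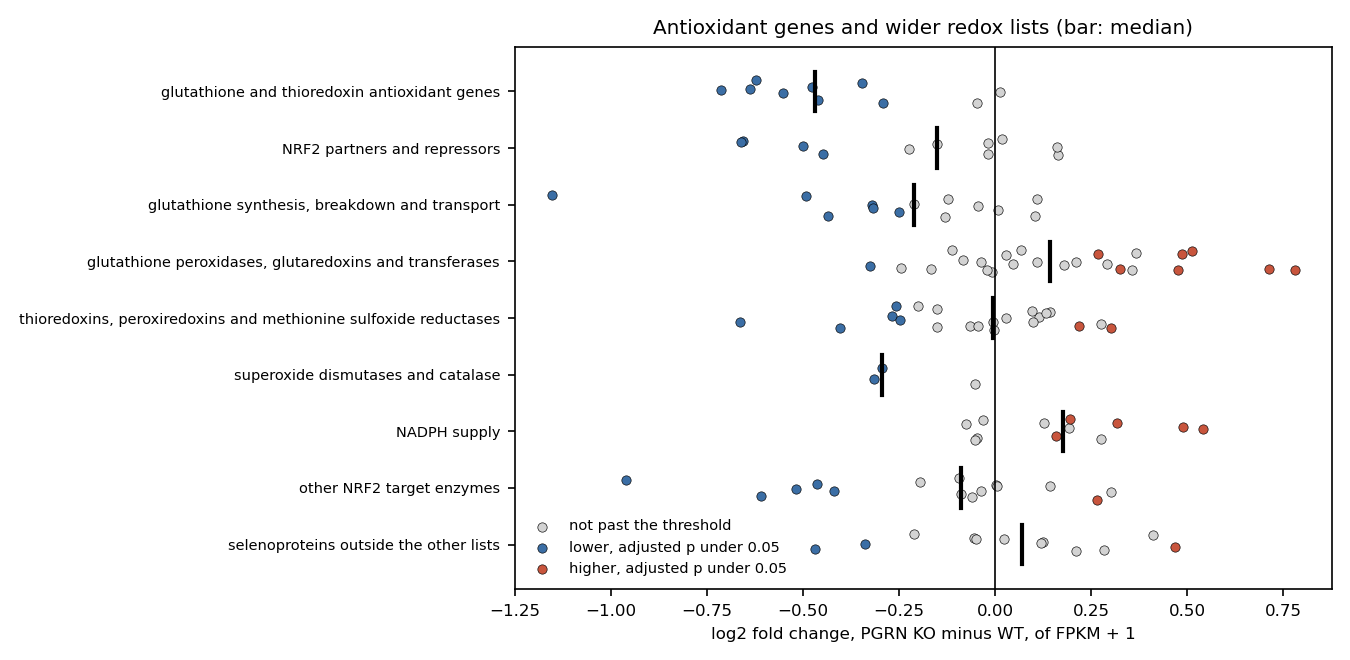
Log2 fold change of FPKM + 1 (PGRN KO minus WT) of every tested gene in the antioxidant group and the 8 wider lists, with the list median as a black bar; blue is lower and red higher at an adjusted p under 0.05, and vertical scatter within a row carries no meaning. The antioxidant group has its median at -0.47, and the peroxidase and NADPH rows have medians of 0.14 and 0.18.

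Genes whose pattern over the 6 libraries was most like that of 4 antioxidant genes were found by the root mean square difference of centred log2(FPKM + 1), among the 9249 genes whose mean FPKM reached 1. For Gclm the nearest was Gss (0.0182), the next enzyme of glutathione synthesis, followed by Fam96b (0.0329) and Cdk5r1 (0.0358). For Slc7a11 they were Resf1 (0.0174), Tlr2 (0.0228) and Gk (0.0262), for Txnrd1 they were Sdc4 (0.0252), Sphk1 (0.0279) and Isyna1 (0.031), and for Srxn1 they were Ptafr (0.0177), Lrrc8d (0.0188) and Sowahc (0.0189). All profiles share the same 6 libraries and their depth, and these distances are descriptions. Another of the 10 genes was the nearest like gene of none of these 4, and the closest pair among the 10 was Gclm with Srxn1 (0.0521).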

How the data were processed

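RNA from 3 WT and 3 PGRN KO neutrophil cultures was sequenced from poly-A libraries (NEBNext Ultra). The authors deposited FPKM values. The submitters' processing notes name HISAT2 2.0.5, featureCounts 1.5.0-p3, DESeq2 1.20.0 and GRCm38, whereas the study's methods name HISAT and HTSeq for these steps. All 10 genes have the same position in GENCODE M21. FPKM times gene length gave whole fragments, within 0.05, for 100% of values above 0, and these sums are 1.034 to 1.039 times the divisor behind the FPKM values in WT and 0.9458 to 0.9575 times it in PGRN KO.

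The 14807 genes whose mean FPKM reached 0.1 were tested on log2(FPKM + 1) with limma 3.58.1 (lmFit, eBayes with trend, R 4.3.3), after the fit was tested on simulated data. This scale understates changes of low genes. FPKM divides by the joined exons of a gene. Ratios were taken in Python 3.11.15. The genes and lists were chosen with earlier results of these data known. Named were all 10 genes and, per list, every called gene (the 6 with the largest change where more than 6 were called) and the most abundant gene. Also named were the ratio partners and Nnt, and, with their values seen, Mafg, Nqo1, G6pdx and Pgd.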

Additional observations from a re-analysis of the deposited data

How the results depend on the processing

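No paired analysis was possible because the genotypes share no replicate numbers. Over 17 alternatives (other pseudocounts, filters, scalings, variance estimates, protein-coding genes alone, and each library left out), 7 or 8 of the 10 antioxidant genes were called lower, and 1 (Gsr) was called higher with voom. Of 170 values of the 10 genes 156 kept their direction and their side of the threshold, 9, all of Keap1, lost the call, 1 gained it and 4 changed sign. Sod2 became 0.030 with quantile normalization, 0.072 with plain totals and 0.072 with voom, and Gsr ran from -0.018 to 0.034 as libraries were left out. Of 728 values of 43 other named genes 613 kept both, 105 lost the call, 5 gained one (Prdx5 under 3 scalings, Txn1 and Nqo1 under 1 setting each) and 5 changed sign. Taldo1 became 0.069 with plain totals and 0.069 with voom, and Selenok 0.030 with quantile normalization, 0.064 with plain totals and 0.064 with voom. Genes of the wider lists called higher numbered 16, but 9 with no filter on low values, 26 with plain totals, 33 with voom, and 6 (without WT replicate 2) to 16 with 1 library left out, among them 9 without WT replicate 1, 7 without WT replicate 3, 7 without PGRN KO replicate 5 and 9 without PGRN KO replicate 6. Such fits hold fewer samples; otherwise the cause was not tested. With 1 library left out, the genotype difference (PGRN KO minus WT) in the log2 ratio of Nfe2l2 to Keap1 ran from -0.127 to 0.0435, that in the log2 ratio of Slc7a11 to Slc3a2 from -0.115 to 0.0386 and that in the log2 ratio of Srxn1 to Prdx1 from -0.0666 to 0.154. With FPKM + 1 the genotype difference in the log2 ratio of Gsr to Gss was 0.504. With plain totals 30.3% of all called genes were lower, and with voom 29.6%, against 55.6% as reported.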

Other observations

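The last of the wider lists holds 12 selenoproteins, kept since thioredoxin reductase and the glutathione peroxidases are selenoproteins too. In PGRN KO neutrophils 2 of the 12 were lower and 1 higher (median log2 fold change 0.07), where 9.95% of all genes tested were lower and 7.94% higher. These calls are already included in the 25 lower and 16 higher of the wider lists. With plain totals 2 were lower and 3 higher, against 934 and 2149 of all 14807 genes. Sephs2, which makes the selenium donor for selenocysteine, was at 77.78, 79.73 and 77.51 FPKM in WT and at 61.79, 62.42 and 61.08 in PGRN KO (log2 fold change -0.34, adjusted p = 0.00202), with the libraries of each genotype close together. Selenon, a protein of the endoplasmic reticulum, fell from 50.78 ± 3.28 to 36.42 ± 2.37 FPKM (SD, n = 3 each, adjusted p = 0.00568). Selenoh rose from 7.77 ± 1.07 to 11.09 ± 1.11 FPKM (SD, n = 3 each, adjusted p = 0.0293), a call that held under 12 of 17 alternatives. Selenok, the most abundant of them, had 93.57 ± 2.12 FPKM in WT against 90.01 ± 2.11 in PGRN KO and did not pass (SD, n = 3 each, adjusted p = 0.39). Within each genotype no library was the highest for all 10 antioxidant genes: WT replicate 3 was the highest WT library for 6 of them, and PGRN KO replicate 6 the highest PGRN KO library for 5.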
